A study of Rattus norvegicus with 12 samples.

Results

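The genes described here encode the contractile apparatus of smooth muscle and the serum response factor (SRF) system that transcribes it. They are 38 gene symbols chosen by role: 4 muscle actins, 11 thin filament and actin-binding proteins, 8 myosins and their regulators, 10 intermediate filament, Z-disc, LIM and adhesion proteins, 4 transcription factors and 1 channel subunit. Of these, 35 had a probe set named on the array, out of 15037 gene symbols named in all. Cnn2, Mrtfa and Mrtfb had none in the annotation used here, so their expression was not analysed here.

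Transcripts of ELT3 and ELT3-245 cells were read on Clariom S arrays for the rat. ELT3 cells lack functional Tsc2 and come from an Eker rat's uterine leiomyoma, a benign tumor of uterine smooth muscle. ELT3-245 is a rapamycin-resistant line that was established from 1 ELT3 xenograft tumor of a SCID mouse that had not responded to rapamycin, so it stands for 1 tumor, and it shares the Tsc2-null background with its parent. Cells of each line received DMSO or 20 nM rapamycin, an inhibitor of mTORC1, for 24 hours, which gave the 4 groups ELT3 DMSO, ELT3 rapamycin, ELT3-245 DMSO and ELT3-245 rapamycin with 3 arrays each. The labels describe triplicate culture plates, so p-values measure the spread between plates handled together, and 3 arrays in a group limit the precision. By the labels, plates with 10 ml of medium took 10 ul of rapamycin stock at 20 mM, and these figures make 20 uM where 20 nM is stated. Values are log2 signals, where a difference of 1 is a doubling of the signal. The array medians lay between 6.69 and 6.82, the replicate arrays of a group correlated at 0.9928 to 0.9966 across probe sets, and no array was left out.

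In smooth muscle, force comes from smooth muscle myosin pulling on thin filaments of muscle actin that carry tropomyosin, caldesmon and calponin. SRF binds the CArG box, a short AT-rich element, in front of many of these genes, and myocardin is its muscle-restricted coactivator. The myocardin-related factors are held back by unpolymerized actin in the cytoplasm and act with SRF when actin is assembled. Leiomyoma cells are known to keep part of the smooth muscle program.

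The upstream DNA of 4 members is shown because Acta1, Acta2, Tnnt2 and Srf are among the members described in most detail. The sequences are the 250 bases before the annotated gene start, read 5′ to 3′ on the gene's strand, from RefSeq on rat build GRCr8. Capitals mark CArG boxes with at most 1 mismatch and MCAT elements, which TEAD factors bind, spelled CATTCC on either strand. They are Acta1, skeletal muscle actin, at chr19:68784195-68784444, minus strand, then Acta2, smooth muscle alpha-actin, at chr1:241172504-241172753, minus strand, then Tnnt2, cardiac troponin T, at chr13:49818873-49819122, plus strand, and Srf at chr9:21923826-21924075, plus strand.
Acta1: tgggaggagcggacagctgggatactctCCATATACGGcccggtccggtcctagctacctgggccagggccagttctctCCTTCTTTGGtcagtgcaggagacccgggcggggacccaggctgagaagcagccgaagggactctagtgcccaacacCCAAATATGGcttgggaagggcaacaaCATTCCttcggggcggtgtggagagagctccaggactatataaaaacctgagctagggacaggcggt
Acta2: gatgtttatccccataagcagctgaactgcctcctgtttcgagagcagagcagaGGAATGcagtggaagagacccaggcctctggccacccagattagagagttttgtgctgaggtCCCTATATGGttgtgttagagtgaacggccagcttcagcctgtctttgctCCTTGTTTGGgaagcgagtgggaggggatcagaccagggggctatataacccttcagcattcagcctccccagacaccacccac
Tnnt2: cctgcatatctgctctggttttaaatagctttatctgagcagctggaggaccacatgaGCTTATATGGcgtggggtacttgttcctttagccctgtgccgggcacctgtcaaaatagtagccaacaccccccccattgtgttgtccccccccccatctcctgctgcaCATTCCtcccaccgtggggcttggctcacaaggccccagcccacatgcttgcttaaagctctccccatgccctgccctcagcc
Srf: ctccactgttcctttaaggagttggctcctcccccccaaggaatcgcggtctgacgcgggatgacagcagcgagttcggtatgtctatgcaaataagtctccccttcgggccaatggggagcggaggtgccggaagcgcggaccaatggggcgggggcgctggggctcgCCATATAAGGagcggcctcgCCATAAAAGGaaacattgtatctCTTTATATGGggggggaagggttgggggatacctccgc

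The Acta1 window held a CArG box with no mismatch between bases -94 and -85 from the gene start, 2 more with 1 mismatch farther upstream, and an MCAT element between -67 and -62. Acta2 held 2 CArG boxes with 1 mismatch, at -134 to -125 and -84 to -75, and an MCAT element on the opposite strand. Srf, whose own promoter is a known SRF target, held 2 CArG boxes with no mismatch at -81 to -72 and -61 to -52. It also held 1 with 1 mismatch at -38 to -29. Tnnt2 held 1 CArG box with 1 mismatch and 1 MCAT element. Of the muscle actins not printed, Actg2 held neither element in its window and Actc1 held CArG boxes with 1 mismatch. Of the 38 members, 32 had a window, all but Tagln, Myh11, Myl9, Lmod1, Myocd and Pdlim3. A CArG box with no mismatch stood in 4 of the 32 (12.5%, Acta1, Cnn2, Ldb3 and Srf) against 1.62% of 27457 genes. With 1 mismatch allowed the shares were 34.4% and 20.1%, and an MCAT element stood in 28.1% of the members and 12.9% of all genes. These are matches of letters in 1 window and were not tested.

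**Figure D1:**
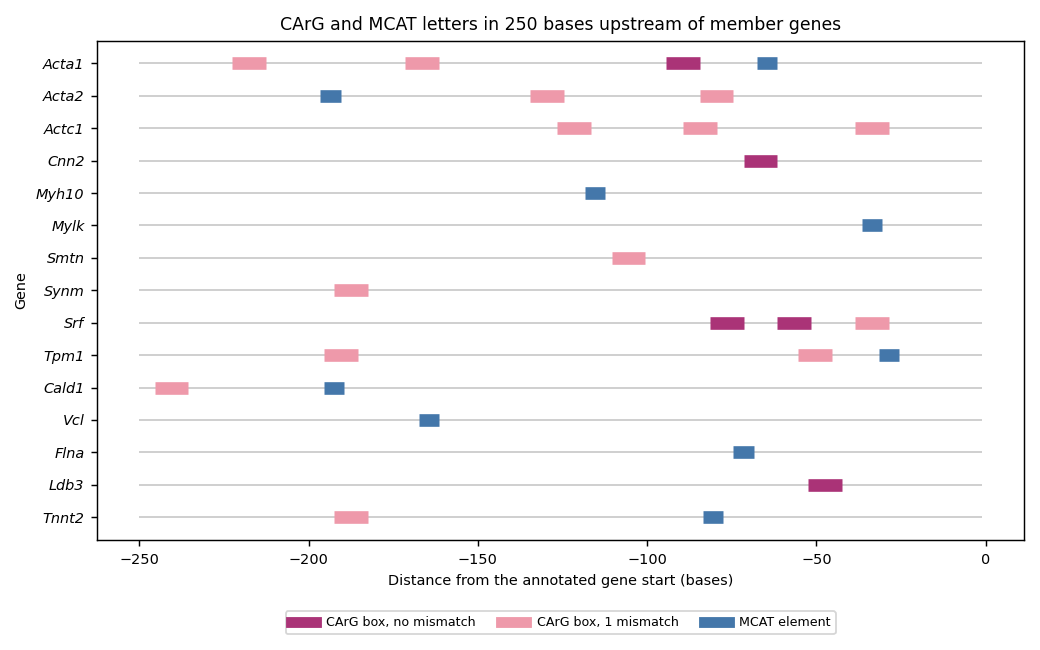
CArG boxes with no mismatch (dark) or 1 mismatch (pale) and MCAT elements (blue) in the 250 bases before the annotated start of the 15 members that held any, by distance from the start in bases. Srf, Tpm1 and the actins Acta1, Acta2 and Actc1 held 2 or 3 CArG boxes each. A gene that is not drawn either held none of these elements or had no window.

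A gene is said to have changed, or to be higher or lower, where the limma adjusted p was under 0.05 over all 23188 probe sets and the change was at least 1.5-fold, which is 0.585 on the log2 scale. Between the lines in DMSO, 14 of the 35 members (40%) were lower in ELT3-245, where 7.56% of all probe sets were lower, and 6 (17.1%) were higher, where 7.3% of all were. In rapamycin 14 (40%) were lower and 2 (5.71%) higher, against 7.92% and 8.86% of all probe sets, so the higher share was not above that of the array as a whole. The members' median difference was -0.27 in DMSO and -0.41 in rapamycin, beside 0.01 and -0.02 over all probe sets. In all, 13 members were lower under both treatments, as 4.96% of all probe sets were, and Synpo2 and Synm were higher under both, as 4.63% of all were. No member was higher under one treatment and lower under the other. In ELT3 DMSO 10 of the 35 members lay under the array median, so the members were brighter than the array as a whole. The shares of all probe sets, here and below, include dim ones. Shares among probe sets of like brightness were not counted. In bulk samples such as these, fewer cells that express a gene and less RNA per cell cannot be told apart.

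Rapamycin raised 14 of the 35 members (40%) in ELT3 and lowered 0, where 7.47% of all probe sets rose and 8.45% fell. At an unadjusted p under 0.05 and without the fold threshold, 0 of the members fell in ELT3. The share of all probe sets under this other rule was not counted, so this 0 cannot be set against the 8.45%. In ELT3-245, 10 members (28.6%) rose and 1 (2.86%) fell, against 5.65% and 4.98% of all probe sets. There were 9 members that rose in both lines, as 3.3% of all probe sets did: Acta1, Tagln, Myh9, Myh10, Myl9, Synpo2, Tpm2, Flna and Csrp1. The median rapamycin response of the members was 0.46 in ELT3 and 0.22 in ELT3-245, beside 0.025 and -0.015 over all probe sets. The test of the difference between both responses found 6 members (17.1%) with a lower response in ELT3-245 and 1 (2.86%) with a higher one, against 2.06% and 2.17% of all probe sets. The line and rapamycin comparisons use the same 4 groups, so their values are not independent of each other.

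**Figure D2:**
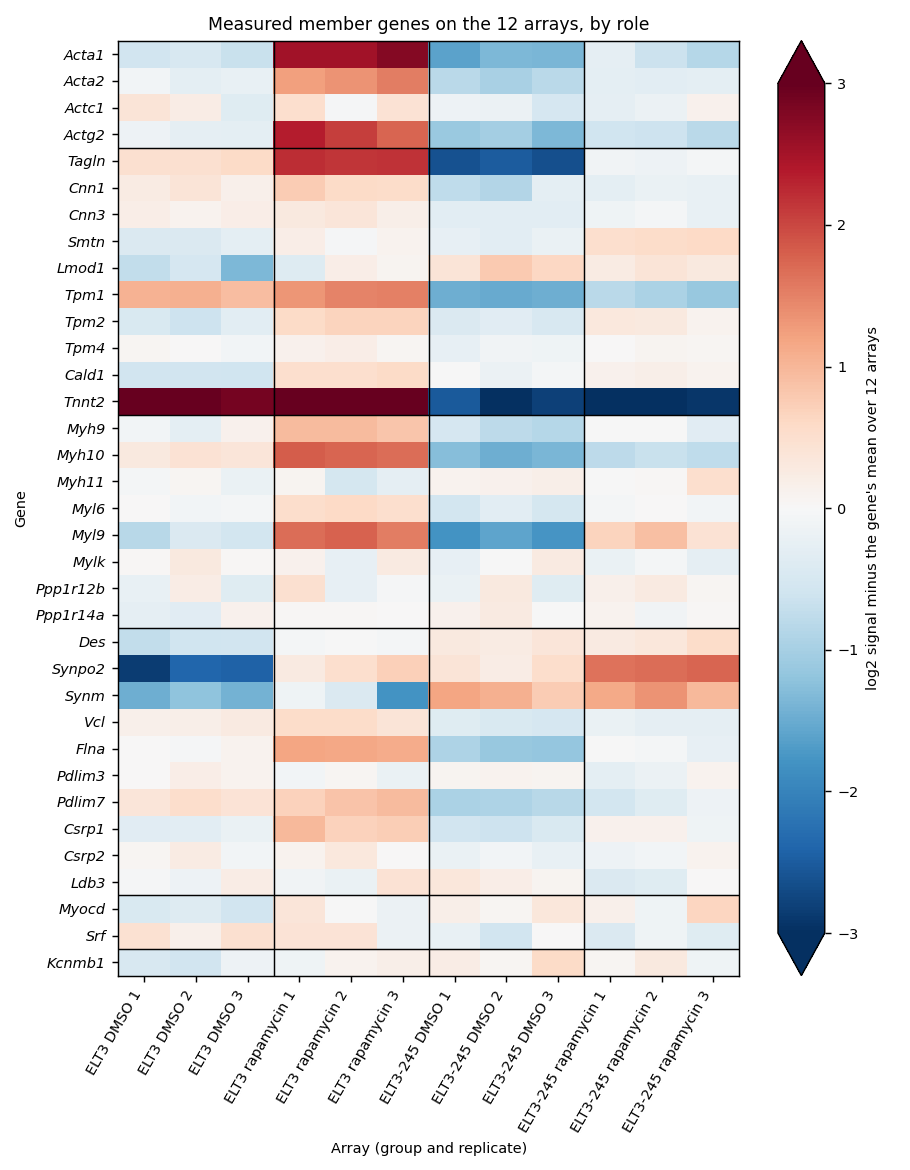
Log2 signal of the 35 measured members (rows, by role) on the 12 arrays (columns, 3 per group), minus each gene's mean over the arrays, with colors ending at 3 in either direction. The rows of Tnnt2 and Tpm1 split by line, and the row of Tagln differs by both line and treatment. The rows of Acta1, Acta2 and Actg2 are highest on the 3 ELT3 rapamycin arrays.

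Of the 4 muscle actins, 3 were lower in ELT3-245 under both treatments, the same 3 rose with rapamycin in ELT3, and by the test of the difference their response was smaller in ELT3-245. These are Acta1, Acta2 and Actg2, smooth muscle gamma-actin. In the sentences that follow, the 3 values of a group are its replicates 1 to 3, and a difference is given with its standard error. Acta1, on chromosome 19, read 8.53, 8.63 and 8.44 in ELT3 and 7.49, 7.76 and 7.74 in ELT3-245 in DMSO, and 11.63, 11.63 and 11.85 in ELT3 and 8.84, 8.45 and 8.24 in ELT3-245 in rapamycin. The 3 ELT3 rapamycin arrays stood far above the other 9, and in DMSO the lines did not overlap. Acta1 was lower in ELT3-245, at -0.87 ± 0.15 (adjusted p = 0.00103) in DMSO and -3.19 ± 0.15 (adjusted p = 9.31e-09) in rapamycin, a 9.14-fold difference. It rose with rapamycin by 3.17 ± 0.15 (adjusted p = 1.44e-07) in ELT3, or 8.99-fold, and by 0.85 ± 0.15 (adjusted p = 0.002) in ELT3-245, and the difference between the rises was -2.32 ± 0.21 (adjusted p = 0.000173).

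Actg2, on chromosome 4, followed the same order of groups and read 8.44, 8.34 and 8.32 in ELT3 and 7.50, 7.59 and 7.27 in ELT3-245 in DMSO, and 10.97, 10.68 and 10.35 in ELT3 and 8.01, 7.99 and 7.79 in ELT3-245 in rapamycin. The line difference was -0.92 ± 0.15 (adjusted p = 0.000728) in DMSO and -2.73 ± 0.15 (adjusted p = 4.02e-08) in rapamycin. Its rise in ELT3 was 2.30 ± 0.15 (adjusted p = 9.45e-07), whereas the response of ELT3-245, 0.48 ± 0.15 (adjusted p = 0.0463), stayed under 1.5-fold although its arrays did not overlap. The responses differed by -1.82 ± 0.21 (adjusted p = 0.000852). Acta2, the actin most used as a smooth muscle marker, read 15.21, 14.99 and 15.06 in ELT3 and 14.49, 14.32 and 14.48 in ELT3-245 in DMSO, and 16.52, 16.64 and 16.82 in ELT3 and 14.99, 14.97 and 14.99 in ELT3-245 in rapamycin. The treated ELT3-245 arrays lay around the lowest untreated ELT3 array. The Acta2 line difference was -0.66 ± 0.11 (adjusted p = 0.000831) in DMSO and -1.67 ± 0.11 (adjusted p = 2.11e-07) in rapamycin, the response was 1.57 ± 0.11 (adjusted p = 1.45e-06) in ELT3 and 0.55 ± 0.11 (adjusted p = 0.00416) in ELT3-245, and the responses differed by -1.02 ± 0.16 (adjusted p = 0.0044). Actc1, cardiac actin, did not pass the test in any comparison, with differences between -0.41 and 0.23 and all arrays between 7.60 and 8.61.

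**Figure D3:**
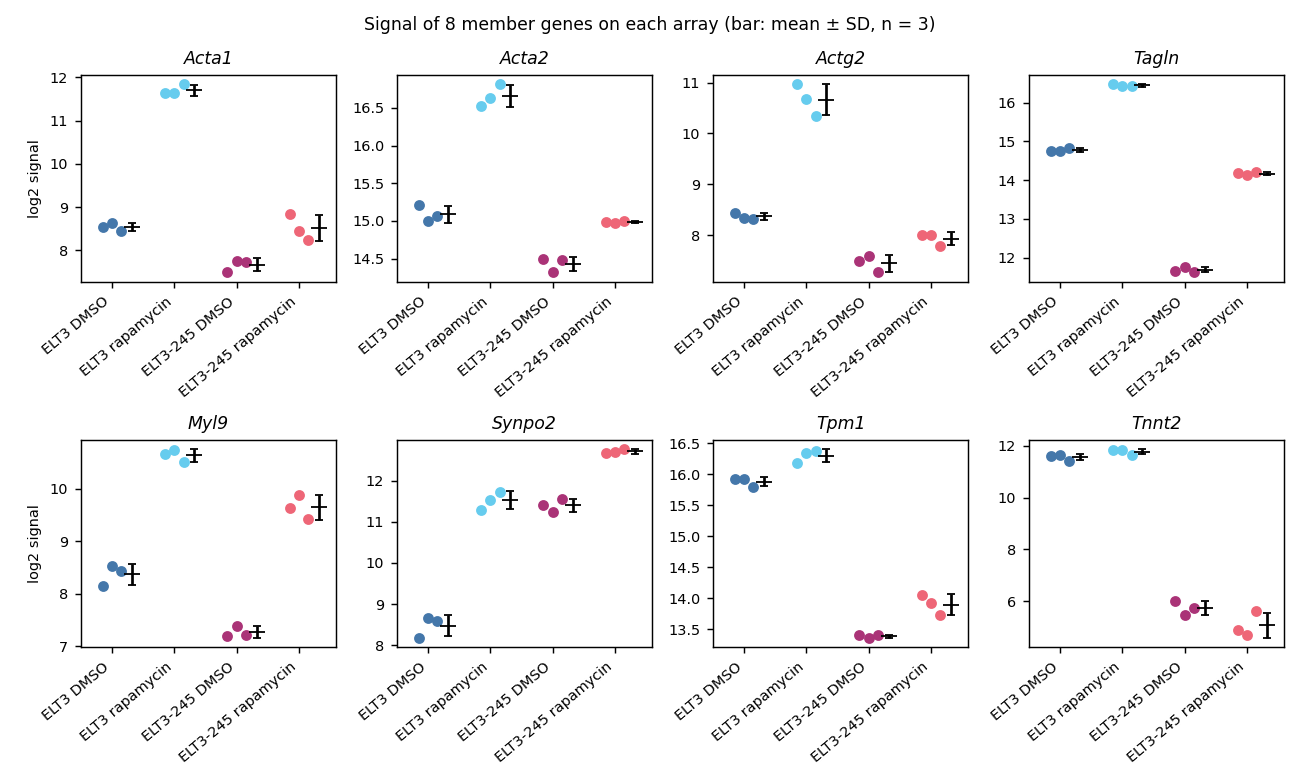
Log2 signal of 8 members on each array (points, 3 per group) with the group mean and SD beside them, and a separate vertical scale for each gene. Acta1, Acta2 and Actg2 are highest on the ELT3 rapamycin arrays, Tpm1 and Tnnt2 are lower in ELT3-245 with or without rapamycin, and Synpo2 is higher in ELT3-245 under each treatment.

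Among the 10 measured thin filament and actin-binding members, Tnnt2, Tagln, Tpm1 and Cnn1 were lower in ELT3-245 under both treatments and Lmod1 was higher in DMSO. The largest line difference of any member was that of Tnnt2, cardiac troponin T, a thin filament protein of striated muscle. Tnnt2 read 11.63, 11.66 and 11.42 in ELT3 and 6.02, 5.47 and 5.74 in ELT3-245 in DMSO, and 11.83, 11.83 and 11.67 in ELT3 and 4.88, 4.71 and 5.61 in ELT3-245 in rapamycin. All ELT3-245 arrays lay under their array median and all ELT3 arrays between 11.42 and 11.83. The difference was -5.82 ± 0.21 (adjusted p = 9.15e-10) in DMSO and -6.71 ± 0.21 (adjusted p = 2.44e-10) in rapamycin. Whether the ELT3-245 signal was above background was not tested, so these differences are given without a fold. Tnnt2 was also the 1 member that fell with rapamycin in ELT3-245, at -0.67 ± 0.21, adjusted p = 0.0434. This call ended without any 1 of 10 of the 12 arrays (adjusted p from 0.05 to 0.17), and its arrays overlapped between the treatments. The responses of the lines differed by -0.88 ± 0.30 (adjusted p = 0.126), and without replicate 3 of ELT3-245 rapamycin by -1.15 (adjusted p = 0.0204).

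Tagln, transgelin, an actin-binding protein abundant in smooth muscle, was the 1 member whose rapamycin rise was larger in ELT3-245. It read 14.76, 14.75 and 14.84 in ELT3 and 11.66, 11.77 and 11.63 in ELT3-245 in DMSO, and 16.49, 16.42 and 16.45 in ELT3 and 14.18, 14.13 and 14.20 in ELT3-245 in rapamycin. The replicates of each group lay close together, and no groups overlapped. Tagln was lower in ELT3-245, at -3.10 ± 0.09 (adjusted p = 1.77e-10) in DMSO, or 8.56-fold, and -2.28 ± 0.09 (adjusted p = 2e-09) in rapamycin. Rapamycin raised it by 1.67 ± 0.09 (adjusted p = 2.78e-07) in ELT3 and by 2.48 ± 0.09 (adjusted p = 5.31e-08) in ELT3-245, or 5.58-fold, a difference of 0.81 ± 0.13 (adjusted p = 0.00507). Even so, the treated ELT3-245 arrays stayed under the untreated ELT3 arrays.

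Tropomyosins lie along the actin filament, and the 3 measured gave different calls. The probe sets of Tpm1 and Tpm2 are each annotated to several transcripts, so the transcript forms of these genes were not told apart. Tpm1, on chromosome 8, read 15.91, 15.92 and 15.79 in ELT3 and 13.40, 13.36 and 13.40 in ELT3-245 in DMSO, and 16.18, 16.35 and 16.37 in ELT3 and 14.05, 13.91 and 13.72 in ELT3-245 in rapamycin. It was lower in ELT3-245, at -2.49 ± 0.11 (adjusted p = 4.99e-09) in DMSO, or 5.63-fold, and -2.40 ± 0.11 (adjusted p = 6.77e-09) in rapamycin, with rapamycin responses of 0.42 and 0.51 that stayed under 1.5-fold. The Tpm1 response of ELT3-245 reached 0.60 (adjusted p = 0.00494) without replicate 3 of ELT3-245 rapamycin. Tpm2 read 12.93, 12.76 and 13.07 in ELT3 and 12.96, 13.04 and 12.91 in ELT3-245 in DMSO, and 13.95, 14.05 and 14.06 in ELT3 and 13.70, 13.69 and 13.48 in ELT3-245 in rapamycin. It did not pass between the lines in DMSO (0.05 ± 0.11, adjusted p = 0.814) and rose with rapamycin in both, by 1.10 ± 0.11 (adjusted p = 2.28e-05) in ELT3 and 0.65 ± 0.11 (adjusted p = 0.00161) in ELT3-245. A second Tpm2 probe set gave the same calls. Tpm4, a nonmuscle form, passed in no comparison and stayed between 16.28 and 16.72.

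Cald1, caldesmon, which restrains the actin and myosin interaction, read 14.00, 14.01 and 13.97 in ELT3 and 14.57, 14.40 and 14.52 in ELT3-245 in DMSO, and 15.08, 15.07 and 15.15 in ELT3 and 14.70, 14.76 and 14.68 in ELT3-245 in rapamycin. It was on the higher side in ELT3-245 in DMSO and on the lower side in rapamycin, in both cases without overlap and under 1.5-fold (0.51 ± 0.09, adjusted p = 0.00149 and -0.39 ± 0.09, adjusted p = 0.00797). Its rise in ELT3 was 1.11 ± 0.09 (adjusted p = 5.09e-06) against 0.22 ± 0.09 (adjusted p = 0.142) in ELT3-245, and the responses differed by -0.89 ± 0.13 (adjusted p = 0.00323). Lmod1, leiomodin, which seeds new actin filaments, read 10.08, 10.32 and 9.46 in ELT3 and 11.20, 11.60 and 11.44 in ELT3-245 in DMSO, and 10.43, 11.03 and 10.91 in ELT3 and 11.08, 11.21 and 11.12 in ELT3-245 in rapamycin. Lmod1 was higher in ELT3-245 in DMSO by 1.46 ± 0.21 (adjusted p = 0.000275) and did not pass in rapamycin (0.35 ± 0.21, adjusted p = 0.293). Its rise in ELT3 was 0.83 ± 0.21 (adjusted p = 0.0122), and this call ended without replicate 2 of ELT3 rapamycin (0.715, adjusted p = 0.0519) and with only the groups compared in the fit (adjusted p = 0.0533). The responses of the lines differed by -1.11 ± 0.30 (adjusted p = 0.0622), which passed without replicate 2 of ELT3 DMSO (-1.30, adjusted p = 0.0458) or replicate 1 of ELT3 rapamycin (-1.29, adjusted p = 0.0364), with an intensity trend (adjusted p = 0.00748) and without dim probe sets (adjusted p = 0.0238).

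Smtn, smoothelin, a protein of contractile smooth muscle, read 13.32, 13.31 and 13.46 in ELT3 and 13.49, 13.44 and 13.54 in ELT3-245 in DMSO, and 13.94, 13.71 and 13.84 in ELT3 and 14.24, 14.29 and 14.35 in ELT3-245 in rapamycin. It rose with rapamycin in ELT3-245 by 0.80 ± 0.10 (adjusted p = 0.000174), and the response of ELT3 was 0.46 ± 0.10 (adjusted p = 0.00478), under 1.5-fold without overlap. The difference of these responses, 0.34 ± 0.14 (adjusted p = 0.222), did not pass. Cnn1, calponin, an inhibitor of smooth muscle myosin, read 6.60, 6.73 and 6.50 in ELT3 and 5.59, 5.46 and 6.07 in ELT3-245 in DMSO, and 7.11, 6.93 and 6.89 in ELT3 and 6.05, 6.14 and 6.12 in ELT3-245 in rapamycin. These values lie around or just under the array medians in ELT3 DMSO, above them in ELT3 rapamycin and under them in ELT3-245. Cnn1 was lower in ELT3-245, at -0.90 ± 0.15 (adjusted p = 0.000638) in DMSO and -0.87 ± 0.15 (adjusted p = 0.000743) in rapamycin, and its rapamycin responses did not pass. Cnn3, a nonmuscle calponin, had line differences of -0.49 ± 0.10 (adjusted p = 0.0025) in DMSO and -0.41 ± 0.10 (adjusted p = 0.00681) in rapamycin, which stayed under 1.5-fold although the lines did not overlap.

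Of the 8 myosin and myosin-control members, Myh10, Myl9 and Myh9 were lower in ELT3-245 under both treatments and rose with rapamycin in both lines. These are the heavy chains of nonmuscle myosin IIB and IIA and a regulatory light chain shared by smooth muscle and nonmuscle myosin. Myh10, on chromosome 10, read 14.61, 14.74 and 14.67 in ELT3 and 13.05, 12.85 and 12.95 in ELT3-245 in DMSO, and 16.13, 16.05 and 16.00 in ELT3 and 13.53, 13.65 and 13.55 in ELT3-245 in rapamycin. It was lower in ELT3-245, at -1.72 ± 0.10 (adjusted p = 5.83e-08) in DMSO and -2.48 ± 0.10 (adjusted p = 1.9e-09) in rapamycin, or 5.59-fold. Rapamycin raised Myh10 by 1.39 ± 0.10 (adjusted p = 1.58e-06) in ELT3 and 0.63 ± 0.10 (adjusted p = 0.000883) in ELT3-245, with a difference of -0.76 ± 0.14 (adjusted p = 0.0115). The call in ELT3-245 ended without replicate 2 of ELT3-245 DMSO, where the rise was 0.58.

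Myl9 read 8.14, 8.54 and 8.43 in ELT3 and 7.20, 7.39 and 7.22 in ELT3-245 in DMSO, and 10.66, 10.74 and 10.51 in ELT3 and 9.64, 9.89 and 9.42 in ELT3-245 in rapamycin. Rapamycin raised it in both lines, by 2.27 ± 0.14 (adjusted p = 7.4e-07) in ELT3 and 2.38 ± 0.14 (adjusted p = 1e-06) in ELT3-245, or 4.81-fold and 5.21-fold. The responses differed by 0.11, with a 95% interval from -0.33 to 0.56. ELT3-245 was lower under both treatments, at -1.10 ± 0.14 (adjusted p = 0.000113) in DMSO and -0.99 ± 0.14 (adjusted p = 0.000257) in rapamycin. Myh9 read 14.48, 14.27 and 14.67 in ELT3 and 14.05, 13.76 and 13.70 in ELT3-245 in DMSO, and 15.50, 15.49 and 15.38 in ELT3 and 14.54, 14.54 and 14.21 in ELT3-245 in rapamycin. It was lower in ELT3-245, at -0.64 ± 0.14 (adjusted p = 0.0061) in DMSO and -1.03 ± 0.14 (adjusted p = 0.00015) in rapamycin, and rose by 0.99 ± 0.14 (adjusted p = 0.000269) in ELT3 and 0.59 ± 0.14 (adjusted p = 0.0115) in ELT3-245. Both smaller Myh9 calls sat just past 1.5-fold. The line call in DMSO ended without replicate 3 of ELT3 DMSO (-0.54) or of ELT3-245 DMSO (-0.57), and the ELT3-245 response fell short without replicate 2 (0.56) or 3 (0.53) of ELT3-245 DMSO or replicate 1 (0.54) or 2 (0.54) of ELT3-245 rapamycin, after quantile normalization (0.58) and with array medians subtracted (0.56).

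Myl6, the essential light chain, had adjusted p under 0.05 but stayed under 1.5-fold in each comparison of 2 groups. It was at -0.42 in DMSO and -0.58 in rapamycin between the lines, and at 0.58 and 0.43 with rapamycin in ELT3 and ELT3-245. The Myl6 line difference in rapamycin passed 1.5-fold without replicate 3 of ELT3 rapamycin (-0.60) or replicate 2 of ELT3-245 rapamycin (-0.605). The ELT3 response passed without replicate 1 of ELT3 DMSO (0.605) or replicate 1 (0.585) or 3 (0.605) of ELT3 rapamycin. Myh11, the smooth muscle myosin heavy chain and the most specific smooth muscle marker of the list, lay between 4.20 and 5.24 on all 12 arrays, under the array medians. Its line difference in rapamycin, 0.42 ± 0.17 (adjusted p = 0.0989), passed without replicate 1 of ELT3 rapamycin (0.585, adjusted p = 0.026). Mylk, which phosphorylates the regulatory light chain, lay between 5.58 and 6.13, and Ppp1r14a, an inhibitor of myosin phosphatase, between 4.08 and 4.70. Neither passed in a comparison, nor did Ppp1r12b, a targeting subunit of that phosphatase, between 7.68 and 8.52.

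**Figure D4:**
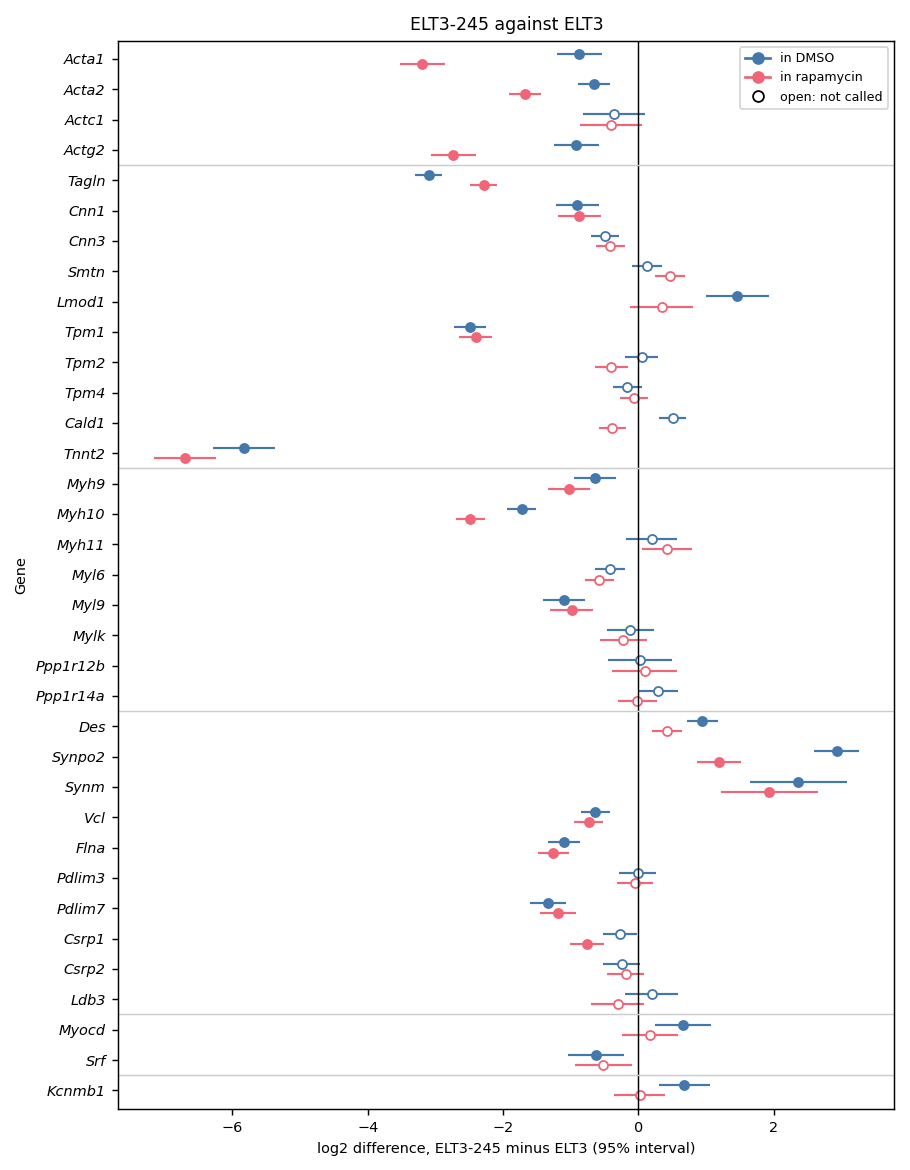
Log2 difference of ELT3-245 minus ELT3 in DMSO (blue) and in rapamycin (red) for the 35 measured members, by role, with 95% intervals, filled where the gene passed the test. Tnnt2 lies farthest left at -5.82 and -6.71, and Synpo2, Synm, Lmod1 and Des lie to the right in DMSO.

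The members of intermediate filaments, Z-discs and adhesions went both ways. Synm, an intermediate filament protein of muscle, and Synpo2, an actin-binding Z-disc protein, were higher in ELT3-245 under both treatments and Des, the main muscle intermediate filament protein, in DMSO, whereas Vcl, Flna and Pdlim7 were lower under both treatments. Synpo2, on chromosome 2, read 8.18, 8.65 and 8.59 in ELT3 and 11.42, 11.24 and 11.56 in ELT3-245 in DMSO, and 11.29, 11.53 and 11.73 in ELT3 and 12.66, 12.71 and 12.76 in ELT3-245 in rapamycin. Treated ELT3 reached the level of untreated ELT3-245. Synpo2 was higher in ELT3-245 by 2.93 ± 0.15 (adjusted p = 2.19e-08) in DMSO, or 7.63-fold, and by 1.19 ± 0.15 (adjusted p = 8.01e-05) in rapamycin. It rose with rapamycin by 3.05 ± 0.15 (adjusted p = 1.78e-07) in ELT3 and 1.30 ± 0.15 (adjusted p = 0.0001) in ELT3-245, and these differed by -1.74 ± 0.21 (adjusted p = 0.00108).

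Synm, synemin, read 5.69, 5.93 and 5.72 in ELT3 and 8.33, 8.21 and 7.90 in ELT3-245 in DMSO, and 7.02, 6.71 and 5.34 in ELT3 and 8.29, 8.48 and 8.11 in ELT3-245 in rapamycin. All ELT3-245 arrays were above all ELT3 arrays, by 2.37 ± 0.33 (adjusted p = 0.000172) in DMSO and 1.94 ± 0.33 (adjusted p = 0.000762) in rapamycin. The ELT3 rapamycin arrays spread widely, with replicate 3 under the DMSO arrays. The Synm response of ELT3 was 0.58 ± 0.33 (adjusted p = 0.24), and without that array it was 1.08 (adjusted p = 0.000838), with a difference between the responses of -0.935 (adjusted p = 0.05). Des, desmin, read 15.60, 15.74 and 15.76 in ELT3 and 16.64, 16.60 and 16.70 in ELT3-245 in DMSO, and 16.29, 16.34 and 16.28 in ELT3 and 16.62, 16.67 and 16.89 in ELT3-245 in rapamycin. It was higher in ELT3-245 by 0.95 ± 0.10 (adjusted p = 2.32e-05) in DMSO, and the difference in rapamycin was 0.42 ± 0.10 (adjusted p = 0.00936), under 1.5-fold without overlap. The rise of Des in ELT3 was 0.60 ± 0.10 (adjusted p = 0.000996), and it fell short of 1.5-fold without replicate 1 of ELT3 DMSO (0.55), after quantile normalization (0.57) and with array medians subtracted (0.53). The responses differed by -0.52 ± 0.15 (adjusted p = 0.0702), and by -0.60 (adjusted p = 0.0498) without replicate 3 of ELT3-245 rapamycin.

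Flna, filamin A, which crosslinks actin, read 14.62, 14.55 and 14.70 in ELT3 and 13.67, 13.46 and 13.44 in ELT3-245 in DMSO, and 15.78, 15.76 and 15.70 in ELT3 and 14.58, 14.53 and 14.36 in ELT3-245 in rapamycin. It was lower in ELT3-245, at -1.10 ± 0.11 (adjusted p = 7.36e-06) in DMSO and -1.26 ± 0.11 (adjusted p = 2.15e-06) in rapamycin, and rose by 1.12 ± 0.11 (adjusted p = 1.36e-05) in ELT3 and 0.97 ± 0.11 (adjusted p = 6.52e-05) in ELT3-245. The treated ELT3-245 arrays lay around and under the untreated ELT3 arrays. Pdlim7, a PDZ and LIM protein on actin filaments, read 13.05, 13.21 and 13.10 in ELT3 and 11.74, 11.75 and 11.85 in ELT3-245 in DMSO, and 13.38, 13.55 and 13.63 in ELT3 and 12.14, 12.32 and 12.54 in ELT3-245 in rapamycin. Its line difference was -1.34 ± 0.12 (adjusted p = 4e-06) in DMSO and -1.19 ± 0.12 (adjusted p = 1.15e-05) in rapamycin. The Pdlim7 response of ELT3-245, 0.55 ± 0.12 (adjusted p = 0.00735), passed 1.5-fold without replicate 3 of ELT3-245 DMSO (0.585) or replicate 1 of ELT3-245 rapamycin (0.65).

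Vcl, vinculin, which links adhesions to actin, read 15.76, 15.78 and 15.88 in ELT3 and 15.24, 15.16 and 15.11 in ELT3-245 in DMSO, and 16.17, 16.16 and 15.99 in ELT3 and 15.42, 15.34 and 15.35 in ELT3-245 in rapamycin. The lines did not overlap under either treatment, with differences of -0.64 ± 0.10 (adjusted p = 0.000393) and -0.73 ± 0.10 (adjusted p = 0.000113). Csrp1, a LIM protein of smooth muscle, read 14.38, 14.38 and 14.50 in ELT3 and 14.13, 14.08 and 14.24 in ELT3-245 in DMSO, and 15.68, 15.40 and 15.44 in ELT3 and 14.84, 14.83 and 14.58 in ELT3-245 in rapamycin. Csrp1 did not pass between the lines in DMSO (-0.27 ± 0.12, adjusted p = 0.132), was lower in ELT3-245 in rapamycin, at -0.76 ± 0.12, adjusted p = 0.000355, and rose by 1.09 ± 0.12 (adjusted p = 3.11e-05) in ELT3 and 0.60 ± 0.12 (adjusted p = 0.00322) in ELT3-245. The last of these fell short of 1.5-fold without replicate 2 of ELT3-245 DMSO (0.57) or replicate 1 (0.56) or 2 (0.56) of ELT3-245 rapamycin, after quantile normalization (0.57) and with array medians subtracted (0.565). Pdlim3, Csrp2 and Ldb3, LIM proteins known from Z-discs and actin filaments, had means under the array medians in every group and passed in no comparison.

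Of the 4 transcription members, Srf and Myocd were measured. Srf read 10.79, 10.47 and 10.81 in ELT3 and 10.10, 9.76 and 10.34 in ELT3-245 in DMSO, and 10.75, 10.73 and 10.15 in ELT3 and 9.90, 10.20 and 9.97 in ELT3-245 in rapamycin. It was lower in ELT3-245 in DMSO, at -0.63 ± 0.19 (adjusted p = 0.0348), close to the threshold, and its difference in rapamycin was -0.52 ± 0.19 (adjusted p = 0.0717). The DMSO call ended without replicate 1 (adjusted p = 0.106) or 3 (0.0999) of ELT3 DMSO or replicate 1 (0.0749) or 2 (0.133) of ELT3-245 DMSO, while the rapamycin difference passed without replicate 3 of ELT3 rapamycin (-0.72, adjusted p = 0.0129) and after quantile normalization (-0.60, adjusted p = 0.0275). Neither line showed a rapamycin response of Srf past the test, at -0.15 ± 0.19 (adjusted p = 0.637) and -0.04 ± 0.19 (adjusted p = 0.929). Myocd, myocardin, lay between 5.41 and 6.62, under the array medians on every array. It was higher in ELT3-245 in DMSO by 0.66 ± 0.19 (adjusted p = 0.0253), a call that ended without replicate 1 (adjusted p = 0.0612) or 3 (0.0755) of ELT3 DMSO or replicate 1 (0.0635) or 3 (0.0869) of ELT3-245 DMSO. Its response in ELT3, 0.52 ± 0.19 (adjusted p = 0.0644), passed without replicate 3 of ELT3 rapamycin (0.64, adjusted p = 0.0441).

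Kcnmb1, the smooth muscle subunit of the large calcium-activated potassium channel, lay between 4.72 and 5.87, also under the array medians. It was higher in ELT3-245 in DMSO by 0.68 ± 0.17 (adjusted p = 0.0123) and did not pass in rapamycin (0.02 ± 0.17, adjusted p = 0.957). The DMSO call ended without replicate 2 of ELT3 DMSO (adjusted p = 0.0553) or replicate 3 of ELT3-245 DMSO (0.0545), and the ELT3 response of 0.46 passed without replicate 3 of ELT3 DMSO (0.59, adjusted p = 0.0351). In all, 8 members lay under the array medians by every group mean: Csrp2, Kcnmb1, Ldb3, Myh11, Mylk, Myocd, Pdlim3 and Ppp1r14a. The array median is no limit of detection. In total, 24 of the 35 members passed in at least 1 comparison, as 31.6% of all probe sets did, and the other 11 had differences between -0.58 and 0.58 over the 5 comparisons.

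**Figure D5:**
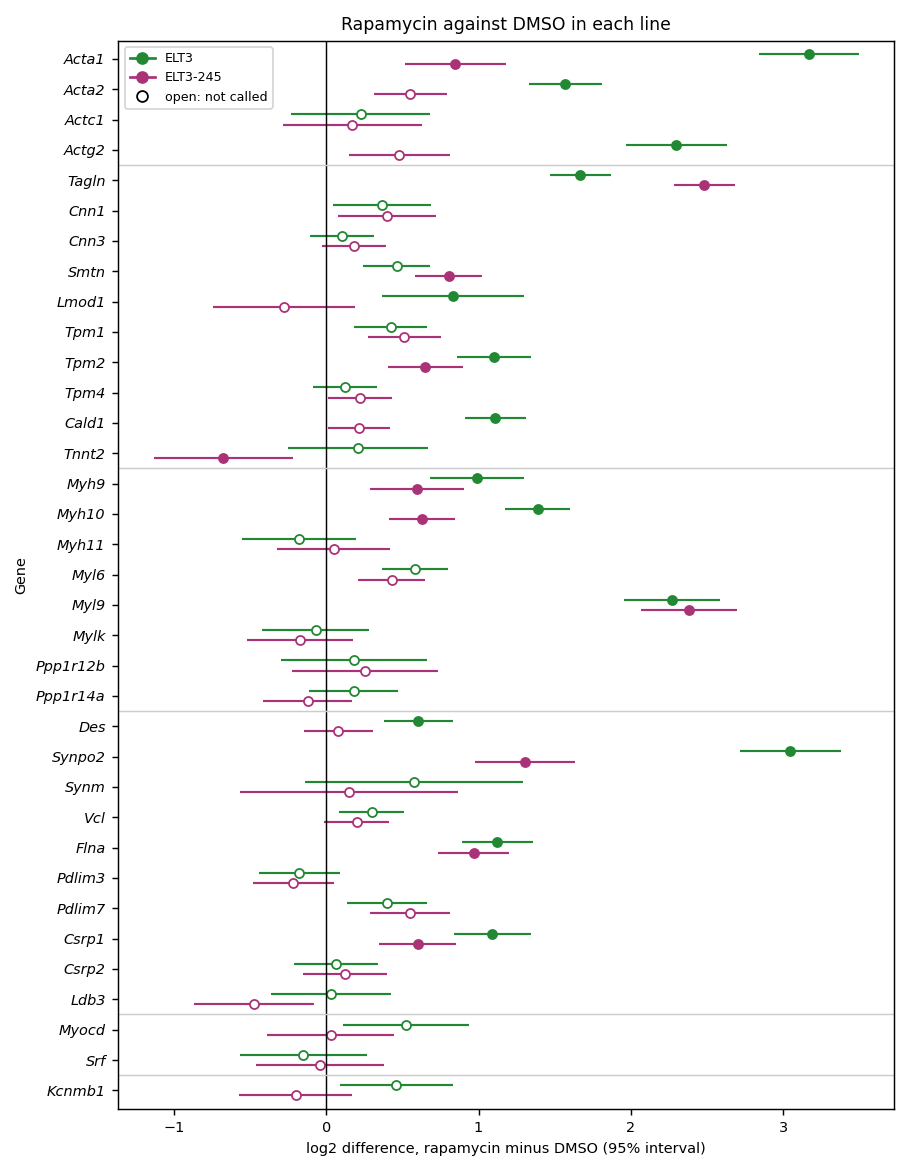
Log2 difference of rapamycin minus DMSO in ELT3 (green) and ELT3-245 (purple) for the 35 measured members, by role, with 95% intervals, filled where the gene passed the test. The responses of Acta1, Actg2, Acta2 and Synpo2 are larger in ELT3, that of Tagln is larger in ELT3-245, and the Myl9 intervals of both lines overlap.

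Side by side, the members sorted into patterns that combined line and treatment. Acta1, Acta2, Actg2 and Myh10 were lower in ELT3-245 and had a smaller rapamycin response there. Tagln was lower in ELT3-245 and rose more there. Myl9, Flna and Myh9 were lower in ELT3-245 and rose in both lines, and the tests of the difference in response did not pass, at 0.11 ± 0.20 (adjusted p = 0.82), -0.16 ± 0.15 (adjusted p = 0.627) and -0.39 ± 0.20 (adjusted p = 0.316). Tnnt2, Tpm1, Cnn1, Pdlim7 and Vcl were lower in ELT3-245 with no rise past the test in either line. Synpo2 was higher in ELT3-245 and rose less there, and Cald1 differed in response with no line difference past the test.

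Lists of related genes were counted in the same fit. Of 28 measured genes of the actin cytoskeleton and adhesion that are often given as targets of SRF and the myocardin-related factors, 11 were lower in ELT3-245 in DMSO (7.56% of all probe sets), and 1 was higher and 10 lower in rapamycin (8.86% and 7.92% of all). Among these, Itga8, an integrin of smooth muscle, was lower, at -3.27 in DMSO and -5.115 in rapamycin on the log2 scale, and Nexn, an actin-binding protein, was at -3.22 and -3.09. With rapamycin 12 of the 28 rose and 1 fell in ELT3 (7.47% and 8.45% of all), and 12 rose and 1 fell in ELT3-245 (5.65% and 4.98% of all), and the gene that fell was Flnc, filamin C, in both. The largest rises were those of Itga8 (2.53) and Fhl2 (1.995) in ELT3 and of Ccn1 (1.74) and Ccn2 (1.31) in ELT3-245. The list's median response was 0.39 in ELT3 and 0.49 in ELT3-245. The response was smaller in ELT3-245 for 4 of the 28 by the test of the difference (2.06% of all).

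Of 24 measured genes of smooth muscle signaling and channels, 6 were higher and 3 lower in ELT3-245 in DMSO, where 7.3% and 7.56% of all probe sets were. In rapamycin 4 were higher and 3 lower (8.86% and 7.92% of all). Rgs2, which restrains G protein signaling, was higher by 2.31 in DMSO and 3.185 in rapamycin, and Cacnb2 by 1.83 and 1.985. Gja1 and Sgcd were also higher under both treatments. Dmd, dystrophin, was lower, at -4.77 and -5.30, and Prkg1, the cyclic GMP-dependent kinase, was at -1.24 and -2.41. With rapamycin 6 of the 24 rose in ELT3 (7.47% of all), and 5 rose and 1 fell in ELT3-245 (5.65% and 4.98% of all). Of 21 measured cofactors and regulators of SRF and smooth muscle genes, 6 were higher and 5 lower in DMSO, beside the same shares of all probe sets, and as many in rapamycin (8.86% and 7.92% of all). Gata6, a factor of the smooth muscle lineage, was lower, at -2.82 and -3.45, and Hey2, a Notch target, was higher by 3.52 and 3.90. With rapamycin 4 of the 21 rose in ELT3, and 5 rose and 1 fell in ELT3-245, beside the shares just given. Of 26 measured striated muscle genes, 3 were higher and 1 lower in DMSO, and 3 were higher and 3 lower in rapamycin, shares (11.5% and 3.85%, then 11.5% and 11.5%) that lie near those of all probe sets (7.3% and 7.56%, then 8.86% and 7.92%). Myh1, a fast skeletal myosin heavy chain, was higher in ELT3-245 by 3.39 and 4.80 and Myod1, the myogenic factor, by 3.06 and 3.98. Myl4 was lower, at -1.18 and -1.55. The ELT3 means of Myh1 (5.83 in DMSO and 6.01 in rapamycin) and Myod1 (6.21 and 5.75) lay under the array medians. As single genes, Tnnt2 and Myh1 differed between the lines in opposite directions.

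Against the smooth muscle label, Acta2, Des, Smtn and Lmod1 were above the array medians on every array, and Myh11 lay under them in both lines. Cnn1 lay around or just under them in ELT3 DMSO, above them in ELT3 rapamycin and under them in ELT3-245. For markers of other cell types, the median line difference in DMSO was largest for fibroblast markers, at 1.225. It was -0.227 for epithelial, -0.001 for pericyte, -0.166 for endothelial and 0.384 for leukocyte markers. Of 10 fibroblast markers, 6 were higher in ELT3-245 under both treatments, as 4.63% of all probe sets were, and the other 4 did not pass. The mean of the list ran from 10.996 to 11.315 on the ELT3 DMSO arrays and from 13.415 to 13.532 on the ELT3-245 DMSO arrays. Lum, lumican, had a mean of 4.40 in ELT3 DMSO and 10.86 in ELT3-245 DMSO, and Fap, fibroblast activation protein, 4.75 and 9.87. With rapamycin 3 fibroblast markers rose in ELT3 (7.47% of all probe sets) and 1 in ELT3-245 (5.65% of all). Of 8 epithelial markers 2 were lower in ELT3-245 in DMSO, and of 6 pericyte markers 1 was lower. Of 6 endothelial markers 1 was higher (Kdr) and 1 lower, and of 5 leukocyte markers 2 were higher (Cd68 and Cd3e). In DMSO 7.3% of all probe sets were higher and 7.56% lower, and 1 call in so short a list is not read as a result. The means of the epithelial, endothelial and leukocyte lists ran from 5.12 to 5.36, 5.26 to 5.50 and 5.57 to 5.89 in ELT3 DMSO and from 4.52 to 4.83, 6.17 to 6.30 and 7.09 to 7.34 in ELT3-245 DMSO. The pericyte mean ran from 7.20 to 7.23 in ELT3 DMSO and from 7.03 to 7.12 in ELT3-245 DMSO. Single genes weighed on these means, as Kdr had group means of 6.27 and 13.50 in DMSO and Cd3e of 4.82 and 10.78. The part of these markers in the members' line differences was not tested.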

How the data were processed

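Total RNA of 12 cultures (2 lines, DMSO or rapamycin, 3 each) was hybridised to rat Clariom S arrays. The authors made the deposited log2 values with RMA (version not stated), a method that subtracts background, brings all arrays to 1 distribution and summarizes the probes of each probe set. RMA narrows differences between dim probe sets. Of 23188 probe sets, 15049 carried 1 gene symbol in the platform annotation and 8139 none, and all were kept in the fit. The probe set with the highest mean stood for a gene.

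One fit of 4 group means was made with limma 3.58.1 in R 4.3.3 (8 residual and 3.91 prior degrees of freedom) and gave 5 comparisons. A gene was called at a Benjamini-Hochberg adjusted p under 0.05 over all probe sets and at least 1.5-fold. All members were named, and values of every array were printed for members called at least once, other than those dim in every group. The members and lists were chosen with earlier results of these data known. Alternatives were robust moderation, an intensity trend, centring on array medians, quantile normalization, the replicate number as a block, no dim probe sets, only the groups compared, other fold thresholds, limma treat, only probe sets with 1 symbol and leaving out each array. The fit was tested on simulated data. CArG and MCAT letters were searched in RefSeq upstream windows (GRCr8). Tables and plots used Python 3.11.15, pandas 2.3.3 and Matplotlib 3.10.9.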

Additional observations from a re-analysis of the deposited data

Results flagged for a closer look

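The test of the difference between the rapamycin responses of the lines (limma, adjusted over all probe sets) singled out 7 members. Their response in ELT3-245 minus that in ELT3 was -2.32 for Acta1 (0.85 against 3.17), -1.82 for Actg2 (0.48 against 2.30) and -1.74 for Synpo2 (1.30 against 3.05) on the log2 scale. For the smooth muscle actin Acta2 it was -1.02 (0.55 against 1.57), for caldesmon, Cald1, -0.89 (0.22 against 1.11) and for Myh10 -0.76 (0.63 against 1.39). Tagln was the one with the larger response in ELT3-245, by 0.81 (2.48 against 1.67). Adjusted p ran from 0.000173 for Acta1 to 0.0115 for Myh10. In all 7 the estimated response was positive in both lines, but those of Acta2, Actg2 and Cald1 in ELT3-245 did not pass as rises.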

How the results depend on the processing

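No member comparison that was called in the main fit or in an alternative turned its direction there. Turns of comparisons that were called in neither were not counted. With a fold threshold of 2, 3 members were higher and 7 lower in ELT3-245 in DMSO, 3 rose with rapamycin in ELT3-245 with 0 falling, and 0 had a larger response in ELT3-245; with limma treat against 1.5-fold, 7 were lower in DMSO, 9 lower in rapamycin, 3 rose and 0 fell in ELT3-245, and 0 had a larger and 3 a smaller response there. Without a fold threshold 4 members were higher in rapamycin. The shares of all probe sets under these other rules were not counted, so these counts cannot be set against the array as a whole. The fall in ELT3-245, of Tnnt2 alone, went to 0 members with the replicate block and with only the groups compared, and was 0 to 1 when single arrays were left out. Leaving out single arrays ended 10 of the 68 calls in at least 1 of 12 fits. Same-numbered arrays had r from -0.12 to 0.21 in 18 pairs, 4 over 0.1. All 9 pairs among the 3 groups other than ELT3 DMSO were above 0 (replicate 3: 0.15 to 0.21), and 2 of the 9 pairs with ELT3 DMSO were, so the numbers were not taken to pair the arrays. As a check the replicate block gave 66 calls in place of 68, ending Srf in DMSO (adjusted p = 0.0581) and Tnnt2 in ELT3-245 (0.0602), and changed no other call. Subtracting array medians moved the share of higher calls among all called probe sets in ELT3 with rapamycin from 46.9% to 37.5%. The share of members with a CArG box was 12.5%, and 34.4% with 1 mismatch. Dropping dim probe sets left 26 members to test, and signals near or under the array medians limit what can be seen of Myh11, Mylk and Myocd.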
